A study of Mus musculus with 4 samples.

Results

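CD30low Th17 cells and CD30low Th1 cells of the mouse were compared gene by gene on Affymetrix GeneChip Mouse Genome 430 2.0 arrays, with 1 array for each population. A gene entered the comparison when it lies on an autosome and its brighter signal of the 2 arrays reached 300, and 7600 of 18193 named genes did so, out of 17404 on autosomes. Signals are linear probe set intensities as deposited, in arbitrary units, and those below 100 were set to 100 before a ratio of Th17 over Th1 was taken. A gene was called higher or lower when the signals differed at least 2-fold, and a fold against a signal below 100 is given as a lower bound. With no replicate array there was no replicate error and no test, so every difference below is a difference between 2 arrays.

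Both populations came from splenic CD4+ T cells that had been cultured for 6 days and sorted by surface CD30, a receptor of the tumour necrosis factor (TNF) receptor family encoded by Tnfrsf8. Effector_Th1_CD30low cells were grown with IL-2 culture sup at 30 U/ml, IL-12 at 100 U/ml and anti-IL-4 Ab at 1 µg/ml. Effector_Th17_CD30low cells were grown with IL-6, IL-1β and IL-23, each at 10 ng/ml, and with anti-IL-4 Ab and anti-IFN-γ Ab, each at 10 µg/ml. The study asked how memory cells arise from such effector cells, and CD30high cells of each lineage, on 1 array each, serve here as a second pair. Lineage, added cytokines and blocking antibodies differ together between the arrays and cannot be told apart. By the labels both CD30low populations started from CD44low CD62Llow cells, whereas by the methods the starting cells were naive and CD62L-high, and the labels of the CD30high arrays give CD62Lhi. By the methods the cells carried a transgenic T cell receptor for ovalbumin (DO11.10 or OTII) and were stimulated with its peptide on irradiated T cell-depleted splenocytes of BALB/c or C57BL/6 mice, but the labels give neither the strain, the transgene, the sex nor the age for these arrays.

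Th1 cells are CD4 T cells that make interferon-gamma (IFN-γ) under the transcription factor T-bet, which IL-12 through STAT4 and IFN-γ itself help to maintain. Th17 cells make IL-17 and are driven by cytokines that signal through STAT3, IL-6 and IL-23 among them, with IL-1 acting through its own receptor and NF-κB. IL-21, made by Th17 cells, signals through STAT3 as well.

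The labels were checked against marker genes. On both arrays the CD4 T cell markers were bright, with Cd3e at 2722 in Th1 and 2024 in Th17 cells and Cd4 at 731 and 679.8, in that order here and below. All 7 of these markers at the limit had a ratio below 1 and none was called, and their summed signal was 90325 and 64344. Tnfrsf8 itself was dim, at 13.3 and 34.9 against 51.1 and 132 in the CD30high Th1 and Th17 cells. The CD30 gate could thus be followed here only below the limit. The only probe set named here for Tnfrsf8 was dim in cells sorted as CD30high too. How well that probe set reads CD30 mRNA was not tested. Of the defining natural killer cell genes Ncr1, Klra1, Klra8 and Klre1 were below 100 on both CD30low arrays, as were 6 of the 7 B cell genes named, Cd79a, Ms4a1 and Pax5 among them. The other B cell gene, Ighm, for the heavy chain of IgM, was bright on both, at 5154 and 4842. Of the 2 CD8 T cell genes Cd8b1 was at 703 and 390 and not called, and Cd8a was below 100 on both. Of 6 genes of MHC class II presentation H2-Ab1, at 1204 and 859, and H2-DMa, at 820 and 490, were at the limit and not called. Whether CD8 T cells or antigen-presenting cells contribute to other differences was not tested. The neutrophil genes stood apart: 5 of the 6 at the limit, out of 9 named, were called higher in Th17 cells, and the list summed to 862 and 9459. Among them S100a8 and S100a9, the 2 chains of calprotectin, reached 5192 and 2017 in Th17 cells, Ngp (neutrophilic granule protein) 1072, Lcn2 (lipocalin 2) 459 and Ltf (lactoferrin) 353, all below 10 in Th1 cells. These 5 genes reached the limit only through the Th17 array, so with the floor at 100 their call as higher was fixed. The neutrophil receptor gene Cxcr2 ran the other way, at 763 and 93.5, and Elane and Mpo, which define neutrophil precursors, were below 100 on both arrays. The call of Cxcr2 was fixed likewise, through the Th1 array. In the CD30high pair S100a8 was at 7.51 and 1210, S100a9 at 18.1 and 527, Ngp at 31.9 and 295 and Cxcr2 at 905 and 235. Ltf and Lcn2 were under the limit there. Whether neutrophil RNA contributes to other differences was not tested. Fewer cells of a type and less RNA per cell cannot be told apart in such bulk samples. Of 10 fibroblast genes 3 were at the limit, and the list summed to 13171 and 13495, most of it Thy1, which T cells also express. Lum, for lumican, was higher, at 33.1 and 768, and Sparc lower, at 346 and 50. Dcn, for decorin, lay under the limit at 2.71 and 127, and Col1a1 was below 20 on both. In the CD30high pair Lum was at 63.3 and 6697, Sparc at 241 and 1.96 and Dcn at 12.0 and 967. The part of fibroblasts in other differences was not tested. The 2 RNA samples also differed in Y-linked signal: Eif2s3y was 1784 and 1.41, Kdm5d 506 and 21.8 and Uty 398 and 9.29, with Xist bright on both at 14620.4 and 22350.0. X- and Y-linked genes, 626 in all, were left out by the rule, and lineage and the sex of the mice cannot be told apart for the autosomal genes.

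Of the 7600 genes, 263 were higher in CD30low Th17 cells (3.46%) and 443 were lower (5.83%), 706 in either direction (9.29%). These shares are the background for each list count below, and a count near them is not a result about the list. The lists were chosen with earlier results of these data known, so a count far from these shares is a description only. At 4-fold the counts were 54 and 99, and at 8-fold 20 and 31. Thus more genes, and more of the large differences, lay on the Th1 side, although the median log2 ratio of all genes was 0.00 with 3794 ratios above 1 and 3806 below. The lower bound applied to 32 of the higher and 52 of the lower genes, whose dimmer signal was below 100. For these genes the call was fixed once the brighter signal reached 300. The share called was 12.3% among genes whose brighter signal was between 300 and 600 and 9.08% among those at 4800 or more, where 70 were lower and 29 higher. By chromosome it ran from 5.02% on chromosome 12 to 12.0% on chromosome 10. Just inside the signal limit lay Mecom, at 300.1 and 2.25, and just outside it Adamts10, at 299.9 and 242. Just past 2-fold lay Psmg1, at 1459 and 2918, and just short of it Top2a, at 11394 and 22758.

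Probe sets that read the same gene gave the only measure of precision. They read the same 2 RNA samples on the same 2 arrays, so their spread holds no variation between cultures, sorts or arrays. Over 3014 genes with a second probe set at the limit, the log2 ratios had an SD of 0.30 per probe set. Of 219 called genes with such a second probe set, 214 had the same direction on it and 140 were past 2-fold again. The other 5 (Cdc7, Nasp, Nhlrc2, Tsc22d1 and Wsb2) had the opposite sign there.

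**Figure D1:**
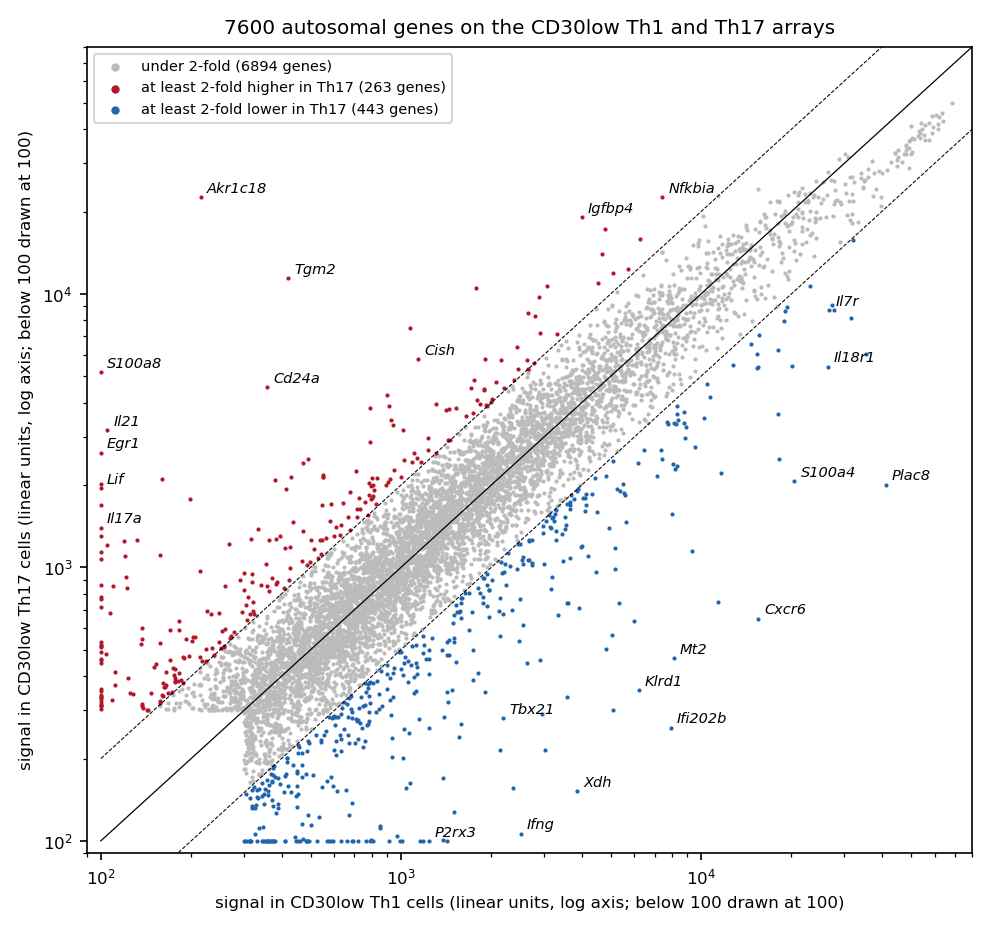
Signal of each of the 7600 genes in CD30low Th1 cells (x axis) and CD30low Th17 cells (y axis), 1 array each, in linear units on log axes. The solid line marks equal signal and the dashed lines 2-fold, with 263 genes above and 443 below, and the brightest genes, ribosomal proteins among them, lie mostly under the solid line.

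The most different gene was Akr1c18, which encodes a 20-alpha-hydroxysteroid dehydrogenase that inactivates progesterone, with 215 in Th1 and 22633 in Th17 cells, 105-fold higher. Cyp11a1, for the side-chain cleavage enzyme at the first step of steroid synthesis, was also among the 20 largest ratios, at 49 and 859.6, at least 8.6-fold. Cytokines made up 4 of the 20. Il21 was at 105 and 3174, 30.2-fold higher. Lif, a cytokine of the IL-6 family, was at 64.6 and 1951, at least 19.5-fold higher. Il17a and Il24 are described with their lists below. Tgm2, the gene for transglutaminase 2, an enzyme that cross-links proteins, was at 420.4 and 11421, 27.2-fold higher, and in CD30high cells at 1635 and 23867. Of its 5 other probe sets 4 had the same direction and the other was below 100 on both CD30low arrays. The early growth response genes Egr1 and Egr3 are taken up with the immediate early genes, and S100a8, S100a9 and Ngp with the neutrophil markers above.

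The remaining large ratios on the Th17 side came from genes of many kinds. Crispld2, for a secreted protein, was at 14.9 and 1692, at least 16.9-fold. Upp1, for uridine phosphorylase, was at 160.2 and 2100.2, 13.1-fold. Cd24a, for the glycoprotein CD24 of the cell surface, was at 357 and 4554, 12.7-fold. All of these were also past 2-fold in the CD30high pair. Marcksl1, for a protein that binds actin and membrane, was at 105 and 1212, 11.5-fold. Cpd, for carboxypeptidase D, was at 119 and 1248, 10.5-fold. Others were large in the CD30low pair and small in the CD30high pair. Gpr83, a G protein-coupled receptor known from regulatory T cells, was at 58.7 and 1298, at least 13-fold, against 88.4 and 165 in CD30high cells. Drc1, for a part of the dynein regulatory complex of cilia, was at 120.4 and 1099, 9.13-fold, against 74.4 and 76.9. Ccn3, for a matricellular protein, was at 198 and 1785, 9.02-fold, against 226 and 142, so that the CD30high pair had the opposite sign. None of these differences between the pairs was tested.

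On the Th1 side the smallest ratio belonged to Ifi202b, an interferon-inducible gene of the p200 family, at 7915 and 259, 30.5-fold lower in Th17 cells. Ifi202b is known to differ between inbred strains, and the strain of these arrays is not in the labels. Xdh, for xanthine dehydrogenase of purine breakdown, was at 3861 and 152, 25.4-fold lower. Cxcr6, a chemokine receptor of effector T cells, was at 15523 and 650.2, 23.9-fold lower. Plac8, a small cysteine-rich protein, was at 41293 and 2009, 20.6-fold lower. The genes Ifng, Klrd1, Klrk1, Fasl, Ccl5, Nkg7 and Hopx, also among the 20, are given below with the Th1 and cytotoxic lists.

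The other members of the 20 on the Th1 side included genes of secretion, receptors and metal binding. Sytl2, for a protein of secretory vesicles, was at 5102 and 301, 17-fold. Csf1, the macrophage growth factor, was at 3016 and 214, 14.1-fold. P2rx3, an ATP-gated ion channel, was at 1237 and 1.77, at least 12.4-fold. All 3 were past 2-fold in CD30high cells too. Ffar2, the receptor for short-chain fatty acids, was at 1006 and 67.2, at least 10.1-fold. Etv5, an ETS family transcription factor, was at 1423 and 59.4, at least 14.2-fold. St3gal6, a sialyltransferase, was at 1181 and 52.5, at least 11.8-fold. The last 2 in this group encode secreted or inhibitory proteins. Rnase4, a secreted ribonuclease, was at 1498 and 128, 11.7-fold. Ctla2b, which resembles the propeptide of cathepsins, was at 11383 and 747, 15.2-fold, and its near relative Ctla2a was also lower, at 27406 and 9084, although probes for the 2 can share sequence.

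**Figure D2:**
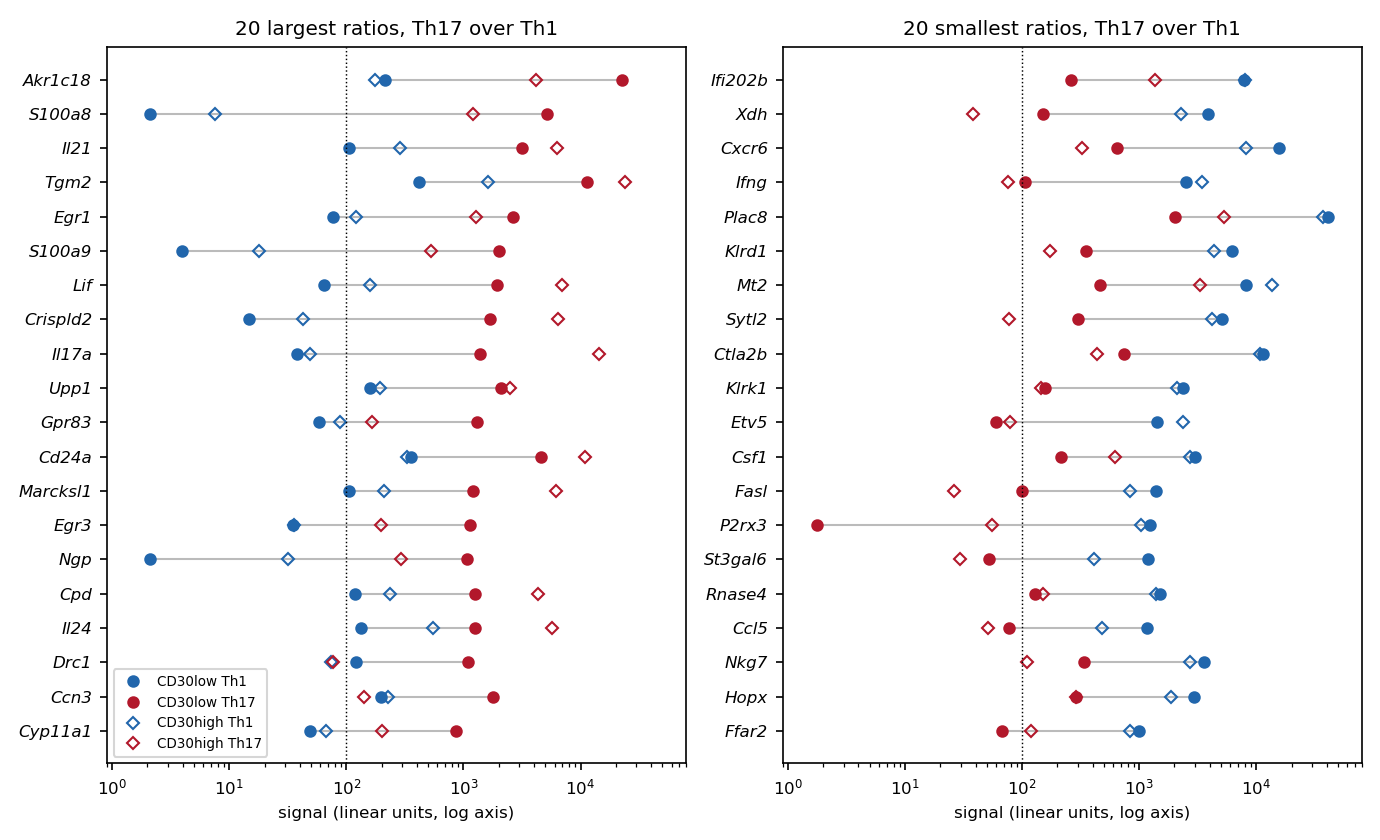
Signals of the 20 genes with the largest and the 20 with the smallest ratio of Th17 over Th1 in CD30low cells, on 4 arrays, in linear units on a log axis, with the dotted line at 100. Filled circles are CD30low and open diamonds CD30high cells. Gpr83, Drc1 and Ccn3 have close diamonds and distant circles, whereas the diamonds of the Th1-side genes keep apart.

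The Th1 program list held 14 genes at the limit, and 8 of them were lower and 0 higher in Th17 cells. Their median log2 ratio was -1.86, against 0.00 over all genes, and all 14 ratios were below 1. Ifng was at 2506 and 106, 23.6-fold lower. Tbx21, which encodes T-bet, was at 2189.8 and 281, 7.78-fold lower. The receptor chains for IL-18, which acts with IL-12 on Th1 cells, were both lower. Il18r1 was at 26465 and 5425, 4.88-fold. Il18rap was at 5310.2 and 739, 7.18-fold. Stat4, the signal transducer of IL-12, was at 5234 and 1939, 2.7-fold lower. The remaining called members act in recruitment, killing and transcription. Ccl5, a chemokine, was at 1162 and 77.5, at least 11.6-fold. Fasl, the ligand of the death receptor Fas, was at 1380.4 and 101, 13.7-fold. Hopx, a homeobox protein known from Th1 cells, was at 2944 and 290.3, 10.1-fold. The other 6 were not called: Runx3 at 2527 and 2469, Txk at 1368 and 1263, Bhlhe40 at 5539 and 4941, Id2 at 19627 and 14866, Irf1 at 3851 and 2377 and Il12rb1 at 433 and 223. Il12rb2, Eomes and Ccl4 lay between 100 and 300 in the brighter array.

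The cytotoxic and natural killer receptor list held 11 genes at the limit, of which 7 were lower and 0 higher, with a median log2 ratio of -2.94. All 11 ratios were below 1. Klrd1, for the CD94 receptor chain, was at 6199 and 355, 17.5-fold lower. Klrk1, for the receptor NKG2D, was at 2359 and 156, 15.1-fold lower. Nkg7, a protein of cytotoxic granules, was at 3586 and 336, 10.7-fold lower. Ctsw, for cathepsin W, was at 5960.5 and 639, 9.33-fold, and Slamf7, a receptor of activated lymphocytes, at 854 and 112, 7.65-fold. Granzyme genes differed less in this pair than in the CD30high pair, a comparison that was not tested. Gzma was at 7385 and 2698, 2.74-fold lower, against 8346 and 874 in CD30high cells. Gzmb, at 49398 and 28882, was not called in CD30low cells and was at 43328 and 5155 in CD30high cells. Of the 6 natural killer cell markers named, 4 were below 100 on both arrays, Eomes was at 176 and 94.6, and Gzmc at 691 and 417 was the only one at the limit and was not called. These markers summed to 919 in Th1 and 556 in Th17 cells, and their part in the values of the list was not tested. The perforin gene Prf1 lay under the limit, at 247 and 121.

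The Th17 program list was split. Of 15 genes at the limit 7 were higher and 3 lower, with a median log2 ratio of 0.51. Il17a was at 37.7 in Th1 and 1398 in Th17 cells, at least 14-fold higher, and at 14443 in CD30high Th17 cells. Il24, a cytokine of the IL-10 family, was at 132 and 1257, 9.5-fold higher. Nfkbiz, which encodes the nuclear IκBζ needed for Th17 development, was at 896 and 4275, 4.77-fold higher. The other higher members were factors of transcription and signalling. Fosl2 was at 1014 and 3183, 3.14-fold. Socs3, a feedback inhibitor of IL-6 signals, was at 6282 and 15897, 2.53-fold. Irf4 was at 1433 and 2929, 2.04-fold, and its second, dimmer probe set was at 168 and 145. The 3 lower members were Maf, at 4468 and 960.3, and the membrane protein genes Tmem176a, at 4197 and 1101, and Tmem176b, at 4028 and 1194. All 3 were lower in CD30high Th17 cells as well. The nuclear receptor gene Rora, at 963 and 951, Stat3, at 1655 and 2349, Batf, at 2342 and 2419, Hif1a, at 25436 and 25777, and Ltb4r1, at 2566 and 1907, were not called. The other, dimmer probe sets of Hif1a were higher in Th17 cells, at 5364 and 8193, 1104 and 2290, and 167 and 262. Ccr6 and Ahr lay between 100 and 300, and the annotation used names no probe set for Il17f, Il22 or Il23r.

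Among 12 cytokine genes at the limit 6 were higher and 3 lower, with a median log2 ratio of 1.32. Besides Lif and Il24, the higher group held Tnf, at 121 and 925, 7.64-fold. Lta, for lymphotoxin, was at 928 and 3468, 3.74-fold. Osm, for oncostatin M of the IL-6 family, was at 786 and 2883, 3.67-fold. Penk, the enkephalin precursor gene, was at 17.5 and 715, at least 7.15-fold. The lower group held Csf1, Il10 and Ebi3. Il10 was at 487 and 67.2, at least 4.87-fold lower. Ebi3, a chain of IL-27 and IL-35, was at 1745 and 499.5, 3.49-fold lower. The Th2 cytokines Il4, Il5 and Il13 stayed under 300 on both arrays, with Il4 at 56.7 and 227. Of 15 chemokine genes beside Ccl5, 13 were below 100 on both arrays and Ccl4 and Cxcl16 between 100 and 300, so Ccl5 was the only chemokine that could be compared.

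Cytokine receptor chains gave a divided picture, with 2 higher and 4 lower of 19 and a median log2 ratio of 0.05. The 2 chains of the IFN-γ receptor ran in opposite directions. Ifngr2, the signalling chain, was at 109.7 and 855, 7.79-fold higher in Th17 cells. Ifngr1, the ligand-binding chain, was at 8907 and 3259, 2.73-fold lower. The chains of the IL-6 receptor were split as well. Il6ra, its ligand-binding chain, was at 267 and 1218, 4.56-fold higher, although its second probe set was at 168 and 180. Il6st, for the shared signalling chain gp130, was at 777 and 361, 2.15-fold lower. All 4 of these directions were seen in the CD30high pair. Il7r was at 26766 and 8752, 3.06-fold lower, and Tgfbr2 at 8153 and 3380.1, 2.41-fold lower. In the IL-1 and IL-18 receptor family, Il1r2, the decoy receptor for IL-1, was at 429 and 2134, 4.98-fold higher, while Il1r1 was below 100 on both arrays. Of 6 chemokine and homing receptors at the limit, Ccr7, which guides cells to lymph nodes, was at 1900.3 and 5767, 3.03-fold higher. Ccr2 was at 8171 and 2293, 3.56-fold lower, as was Cxcr6.

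Of 18 STAT, SOCS and JAK genes 4 were higher and 1, Stat4, lower, with a median log2 ratio of 0.42. The SOCS family encodes feedback inhibitors whose genes are switched on by the STATs they restrain, and 3 of the 4 higher genes belong to it. Cish was at 1139.7 and 5766, 5.06-fold higher. Socs1 was at 215 and 967, 4.51-fold higher. Socs3 is given above, and Jak2, the kinase that joins it in the higher group, was at 2163 and 5715, 2.64-fold. Socs2 was not called, at 7411 and 14208. The promoters of Cish and Socs3 are shown because their genes were called and their 300 bases, from 250 before to 50 after the start site, hold the STAT motif TTCNNNGAA, in capitals. They are read 5′ to 3′ in the direction of the gene from RefSeq, build GRCm38.p6, at chr9:107296409-107296708 (plus strand) and chr11:117969317-117969616 (minus strand).
Cish: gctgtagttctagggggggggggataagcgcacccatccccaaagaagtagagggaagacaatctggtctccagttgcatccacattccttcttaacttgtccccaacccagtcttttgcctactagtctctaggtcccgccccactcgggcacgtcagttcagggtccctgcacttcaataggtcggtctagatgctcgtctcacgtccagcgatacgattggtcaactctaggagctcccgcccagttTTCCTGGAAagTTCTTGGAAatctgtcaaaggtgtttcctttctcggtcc
Socs3: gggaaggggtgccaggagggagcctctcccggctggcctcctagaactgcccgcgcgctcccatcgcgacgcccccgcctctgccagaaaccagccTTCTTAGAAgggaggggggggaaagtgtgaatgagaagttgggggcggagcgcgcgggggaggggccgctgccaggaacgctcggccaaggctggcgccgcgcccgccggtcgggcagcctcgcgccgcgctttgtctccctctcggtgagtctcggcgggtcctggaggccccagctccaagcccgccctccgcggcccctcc
The motif was searched on both strands, as were the motifs below, and each search was separate, so that matches could overlap. It was found in 8.35% of 31396 promoters of autosomal genes, 6.78% of those of the genes compared, 9.38% of those of the higher genes and 8.45% of those of the lower genes. A match describes the letters of the window and not a bound site.

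Targets of IL-2 and of IL-6 were mixed. Of 17 IL-2 and STAT5 response genes 4 were higher and 1 lower, with a median log2 ratio of 0.20, and the higher ones beside Cish and Osm were Tfrc and Myc. Tfrc, the transferrin receptor, was at 4796 and 17227, 3.59-fold. Myc was at 2212 and 4539, 2.05-fold. The IL-2 receptor chain Il2ra, at 4495 and 7707, was not called. Of 15 IL-6 and STAT3 response genes 5 were higher (Il21, Il6ra, Junb, Socs3 and Bcl3) and 4 lower (Il10, Maf, Prdm1 and Il6st), with a median of 0.07. Prdm1, for the repressor Blimp-1, was at 1449 and 478, 3.03-fold lower.

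NF-κB, the factor downstream of IL-1 and TNF receptors, controls the genes of its own inhibitors. Of 15 genes for its subunits, inhibitors and partners 5 were higher and 1 lower, with a median log2 ratio of 0.63. Nfkbia, for the main inhibitor IκBα, was at 7415 and 22655, 3.06-fold higher. Relb, a subunit, was at 137 and 523, 3.83-fold higher. Birc3, an inhibitor of apoptosis, was at 2446 and 6393, 2.61-fold higher. Together with Nfkbiz and Bcl3, at 1093 and 2429, these made up the higher group, and all 5 were past 2-fold in CD30high cells. The lower gene was Icam1, an adhesion molecule, at 1566 and 685, 2.28-fold. The Nfkbia promoter, at chr12:55492598-55492897 on the minus strand of GRCm38.p6 (RefSeq), is shown since it holds a κB motif just before the start site, in capitals. That motif was chosen after the values were seen.
Nfkbia: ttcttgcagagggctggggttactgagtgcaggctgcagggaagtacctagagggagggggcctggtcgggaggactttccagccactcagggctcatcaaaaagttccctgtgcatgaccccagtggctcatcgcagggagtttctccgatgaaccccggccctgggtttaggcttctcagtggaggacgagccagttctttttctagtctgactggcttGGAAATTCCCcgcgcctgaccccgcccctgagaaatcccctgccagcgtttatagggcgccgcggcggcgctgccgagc
The κB motif was present in 6 of 16 promoters of this list (37.5%), against 4.57% of all promoters and 5.17% of those compared. Across called genes it was present in 7.64% of promoters of the higher and 6.39% of the lower genes. Among TNF ligands Tnf, Lta and Tnfsf8 were higher, and the last, which encodes the CD30 ligand CD153, was at 490.5 and 2500.2, 5.1-fold. Fasl and Tnfsf10, at 361 and 147, were lower. Of 9 TNF receptors at the limit Tnfrsf4, for OX40, was the only called member, at 2794 and 8330.5, 2.98-fold higher.

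Immediate early genes are switched on within minutes of a stimulus, without new protein. Of 20 at the limit 10 were higher and 1 lower in Th17 cells, with a median log2 ratio of 0.95 that fell to 0.11 when the signal limit was set at 600. Egr1 was at 76.3 and 2632, at least 26.3-fold higher. Egr3 was at 35.2 and 1138, at least 11.4-fold higher, but its other probe set ran the other way at 176 and 65.6. Egr2 was at 17.2 and 519, at least 5.19-fold higher. Of the AP-1 genes in this list Fos and Junb were higher and Jun was lower. Fos was at 123 and 842, 6.86-fold, and Junb at 384 and 1266, 3.3-fold. Jun was at 2350.4 and 699, 3.36-fold lower. The orphan receptor gene Nr4a3 was at 9.88 and 331, at least 3.31-fold higher. Cd69, an early activation marker, was at 1717 and 4526, 2.64-fold. In the CD30high pair 2 of 15 such genes were higher and 4 lower, with a median of -0.06, and Fos was at 150.1 and 159 there. The 2 medians cover different members, since Egr2, Egr3 and Fos were under 300 on both CD30high arrays. How far the 2 pairs differ over the same genes was not tested.

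The Egr2 promoter is given since it holds the CArG box, the motif of serum response factor, which controls many immediate early genes. It lies at chr10:67537619-67537918 on the plus strand of GRCm38.p6 (RefSeq), 1 of several start sites listed for the gene, with the motif in capitals.
Egr2: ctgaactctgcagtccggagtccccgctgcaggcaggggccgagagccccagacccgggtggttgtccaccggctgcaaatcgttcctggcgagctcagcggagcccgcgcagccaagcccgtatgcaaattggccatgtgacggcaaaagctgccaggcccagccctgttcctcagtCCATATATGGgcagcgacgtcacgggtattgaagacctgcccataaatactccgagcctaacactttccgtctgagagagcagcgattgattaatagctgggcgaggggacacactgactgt
The CArG box, likewise chosen after the values were seen, was present in 26.3% of 19 promoters of the list, against 1.57% of all promoters and 1.21% of those compared. These matches belonged to 2 of 15 genes, and overlapping windows of Egr2 start sites hold the same match and were counted separately. The box was found in 3.47% of promoters of the higher and 2.68% of the lower genes. Of the AP-1, BATF and IRF factors 6 were higher and 3 lower of 16, with a median log2 ratio of -0.20. Batf3 was at 641 and 1718, 2.68-fold higher, and Irf8 was at 1031 and 472, 2.18-fold lower. Bach1 was at 1107 and 396, 2.8-fold lower. The median of this list turned to 1.03 with probe sets that carry no cross-hybridization suffix.

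**Figure D3:**
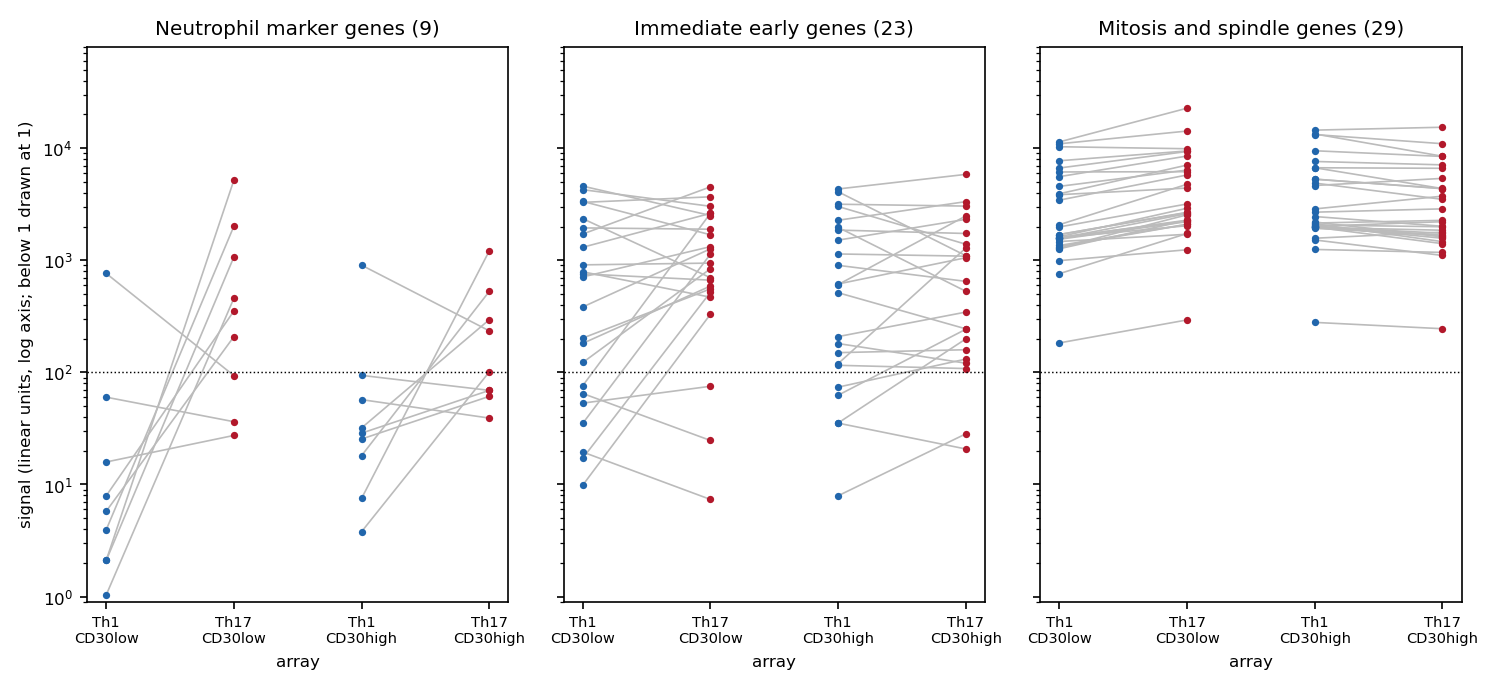
Signals of the neutrophil markers (9 genes), the immediate early genes (23) and the genes of mitosis and the spindle (29) on 4 arrays, in linear units on a log axis, with lines that join Th1 and Th17 cells of the same CD30 gate and a dotted line at 100. Most neutrophil lines climb steeply in the CD30low pair, immediate early lines fan out upward there, and mitosis lines slope up in CD30low and slightly down in CD30high cells.

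Of 15 interferon response genes 1 was higher (Socs1) and 1 lower (Irf8), while 9.29% of all genes compared were called in either direction. The median log2 ratio of the 15 was -0.09, against -0.82 for the 13 compared in CD30high cells. Of 11 interferon-induced GTPases, which restrict intracellular microbes, 2 were lower, against 5.83% of all genes, and 0 higher, with a median of -0.32 and all 11 ratios below 1. Iigp1 was at 2682 and 1065, 2.52-fold lower, and Gbp6 at 2975 and 1335, 2.23-fold lower. The others were bright on both arrays, with Igtp at 23830.4 and 13721, Irgm1 at 1949 and 1556 and Gbp2 at 5887 and 5179. All 13 genes of MHC class I presentation had ratios below 1 and none was called, with a median of -0.27, H2-K1 at 31945 and 18135 being an example. Ifng itself differed 23.6-fold, and the Th17 cultures alone held an antibody to IFN-γ, whose part in these values was not tested. Members of the family share the interferon-stimulated response element, searched as GAAA, any pair of bases and GAAA again, close to their start sites, in capitals in 3 promoters (RefSeq, GRCm38.p6), which lie at chr11:58199306-58199605 (plus strand), chr11:48871371-48871670 (minus strand) and chr3:142620413-142620712 (plus strand).
Igtp: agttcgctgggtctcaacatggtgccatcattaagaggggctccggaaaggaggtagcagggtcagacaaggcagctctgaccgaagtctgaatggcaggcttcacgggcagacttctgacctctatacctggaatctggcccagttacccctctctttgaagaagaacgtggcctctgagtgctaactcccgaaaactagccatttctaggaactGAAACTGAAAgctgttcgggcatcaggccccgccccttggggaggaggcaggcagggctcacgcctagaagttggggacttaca
Irgm1: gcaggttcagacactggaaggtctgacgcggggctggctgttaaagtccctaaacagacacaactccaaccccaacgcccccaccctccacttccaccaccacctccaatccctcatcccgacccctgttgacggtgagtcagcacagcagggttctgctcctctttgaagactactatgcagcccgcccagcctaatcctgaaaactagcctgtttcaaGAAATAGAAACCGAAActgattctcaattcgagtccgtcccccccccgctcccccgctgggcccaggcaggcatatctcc
Gbp2: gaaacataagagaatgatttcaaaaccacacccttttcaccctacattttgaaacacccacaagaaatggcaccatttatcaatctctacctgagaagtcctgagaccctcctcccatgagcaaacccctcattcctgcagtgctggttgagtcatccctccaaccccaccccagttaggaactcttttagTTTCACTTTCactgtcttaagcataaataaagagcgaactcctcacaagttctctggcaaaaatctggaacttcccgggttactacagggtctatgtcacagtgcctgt
The element was found in 7 of 9 promoters of these GTPases (77.8%), against 3.46% of all promoters and 3.05% of those compared. Across called genes it was present in 5.21% of promoters of the higher and 4.54% of the lower genes.

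The T-box motif TCACACC was found in 4.17% of promoters of higher and 3.3% of lower genes, against 3.06% of those compared. The nuclear receptor motif AGGTCA was found in 11.8% and 12.6%, against 12.3%. The AP-1 motif TGANTCA was found in 6.94% and 10.3%, against 4.64%. Of the 7600 genes 6268 had a promoter in the table, among them 210 of the higher and 371 of the lower genes.

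Genes of other T cell states were spread over both directions. Of 15 regulatory T cell genes 4 were higher and 4 lower, with a median log2 ratio of 0.37 that turned to -0.030 with probe sets free of a cross-hybridization suffix. Izumo1r, for folate receptor 4, was at 381 and 2088, 5.47-fold higher, and Ikzf4 at 397 and 1303, 3.29-fold higher, next to Gpr83 and Tnfrsf4. Entpd1, for the ectonucleotidase CD39, was at 1039 and 156, 6.64-fold lower. Ctla4, an inhibitory receptor, was at 10220.4 and 3523, 2.9-fold lower, as were Il10 and Ebi3. The list for naive and memory cells, 17 at the limit, had 3 higher and 3 lower members. Igfbp4 was at 4002 and 19060.3, 4.76-fold higher, next to Ccr7 and Dapl1. Klf3 was at 3114 and 1555, 2-fold lower, next to Il7r and Id3, and the related Klf2 was at 3619.9 and 3259.7 and not called. In CD30high cells the same 2 Krüppel-like factors were at 1782 and 52.1 for Klf3 and 2608 and 143 for Klf2. Of 8 follicular helper genes Il21, Pou2af1 and Cd200 were higher, and Cd200, for a ligand of inhibitory receptors, was at 187 and 469. In the CD28 family and among checkpoint genes Pdcd1lg2, for PD-L2, was at 123 and 393, 3.2-fold higher, and Cd96 was at 3593 and 741, 4.85-fold lower. Gata3, the factor of Th2 cells, was at 1176 and 1333 and not called.

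Of 26 genes of T cell receptor signalling 2 were lower, against 5.83% of all genes, and 0 higher, with a median log2 ratio of -0.39. Trat1, an adaptor of the receptor complex, was at 4814 and 505, 9.53-fold lower. Ubash3a was at 1123 and 522, 2.15-fold lower. Of 15 integrin and adhesion genes Itga4, a chain of integrins that guide T cells into tissues, was at 1386 and 169, 8.18-fold lower, and Itga3 was at 125 and 347, 2.78-fold higher. Of 16 genes for S100 proteins, annexins and related calcium or sugar binders 5 were lower and 0 higher. S100a4 was at 20479 and 2067, 9.91-fold lower. Lgals3, for galectin-3, was at 18131 and 2495, 7.27-fold lower. Anxa1 was at 11641 and 2221, 5.24-fold lower. All 3 were also past 2-fold in CD30high cells. Among 13 GIMAP and MS4A genes, known from lymphocytes and at bright signals here, Ms4a6d was at 1072 and 162, 6.61-fold, and Gimap6 at 10711 and 4210.1, 2.54-fold lower. In signalling by G proteins and cyclic nucleotides the phosphodiesterase gene Pde2a was at 5044 and 565, 8.93-fold lower, while the prostaglandin E receptor genes Ptger2, at 921 and 2113, and Ptger4, at 2637 and 5741, were higher.

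Several genes that promote death of lymphocytes were brighter in Th1 cells. Of 22 genes of the BCL2 family and of cell death 6 were lower and 1, Birc3, higher, with a median log2 ratio of -0.13. Bbc3, for the BH3 protein PUMA, was at 849 and 113, 7.49-fold lower. Bmf, a related BH3 protein, was at 576 and 54.2, at least 5.76-fold lower. Bcl2l11, for BIM, was at 5390.1 and 1902, 2.83-fold lower. With Fasl, Casp1 and Pmaip1, for the BH3 protein NOXA, these made up the 6, whereas Bcl2 itself was at 12192 and 13958 and Mcl1 at 13973 and 11866, neither of them called. Bbc3, Bmf, Bcl2l11 and Pmaip1 were also past 2-fold in CD30high cells.

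Metal and matrix genes differed by single members. Mt1 and Mt2, the metallothioneins that bind zinc and copper, were at 9336 and 1150.0 and at 8118 and 466, 8.12-fold and 17.4-fold lower. Slc30a1, the zinc exporter that responds to the same metal-sensing factor, was at 308 and 37.9, at least 3.08-fold lower. Slc39a10, a zinc importer, was at 786 and 3839, 4.88-fold higher. These were the only called genes, 1 higher and 3 lower, among 13 for metallothioneins and zinc transport at the limit, with a median log2 ratio of -0.20. The same directions were seen for them in CD30high cells. Of 10 secreted matrix and protease genes 2 were higher (Tgm2 and Ccn3) and 3 lower, of which Itih5 was at 5494 and 2017, 2.72-fold. Of 12 genes of the TGF-β response 4 were lower, against 5.83% of all genes, among them Tgif1 and Ltbp3, and 0 higher. The transporters of cholesterol Abca1, at 481 and 69.8, and Abcg1, at 1569 and 692, were lower, and Scd1, a fatty acid desaturase, at 1421 and 477, was the only called gene of 26 in cholesterol and fatty acid synthesis.

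Of 31 genes of G1/S and DNA replication 3 were higher, against 3.46% of all genes, and 0 lower, and the median log2 ratio was 0.60 with 28 ratios above 1. Of 28 genes of mitosis and the spindle 2 were higher and 0 lower, and the median was 0.62 with 27 ratios above 1. In CD30high cells the medians were 0.15 and -0.19. Rfc3, of the clamp loader, was at 782 and 2034, 2.6-fold, and Bub1, of the spindle checkpoint, at 2081 and 4769, 2.29-fold. The proteasome had 1 called gene of 31, Psmb7 at 794 and 1992, and a median of 0.43 with 29 ratios above 1. Glycolysis and hypoxia genes had 3 higher of 28 and a median of 0.36. Hk2, the inducible hexokinase, was at 1753 and 4865, 2.78-fold, and Ak4, an adenylate kinase, at 1026 and 2481, 2.42-fold. The third, Pfkl, was at 371 and 914, but its other probe sets were at 273 and 509 and at 294 and 231. Of 29 cytosolic ribosomal proteins 0 were called, with a median of -0.48 and 27 ratios below 1, a shift that nearly vanished at -0.02 after quantile normalization and lies in the brightest signals of the arrays. Respiratory chain, ribosome biogenesis, endoplasmic reticulum chaperone and ATF4 response genes had 0 called members each and medians between -0.11 and 0.07.

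**Figure D4:**
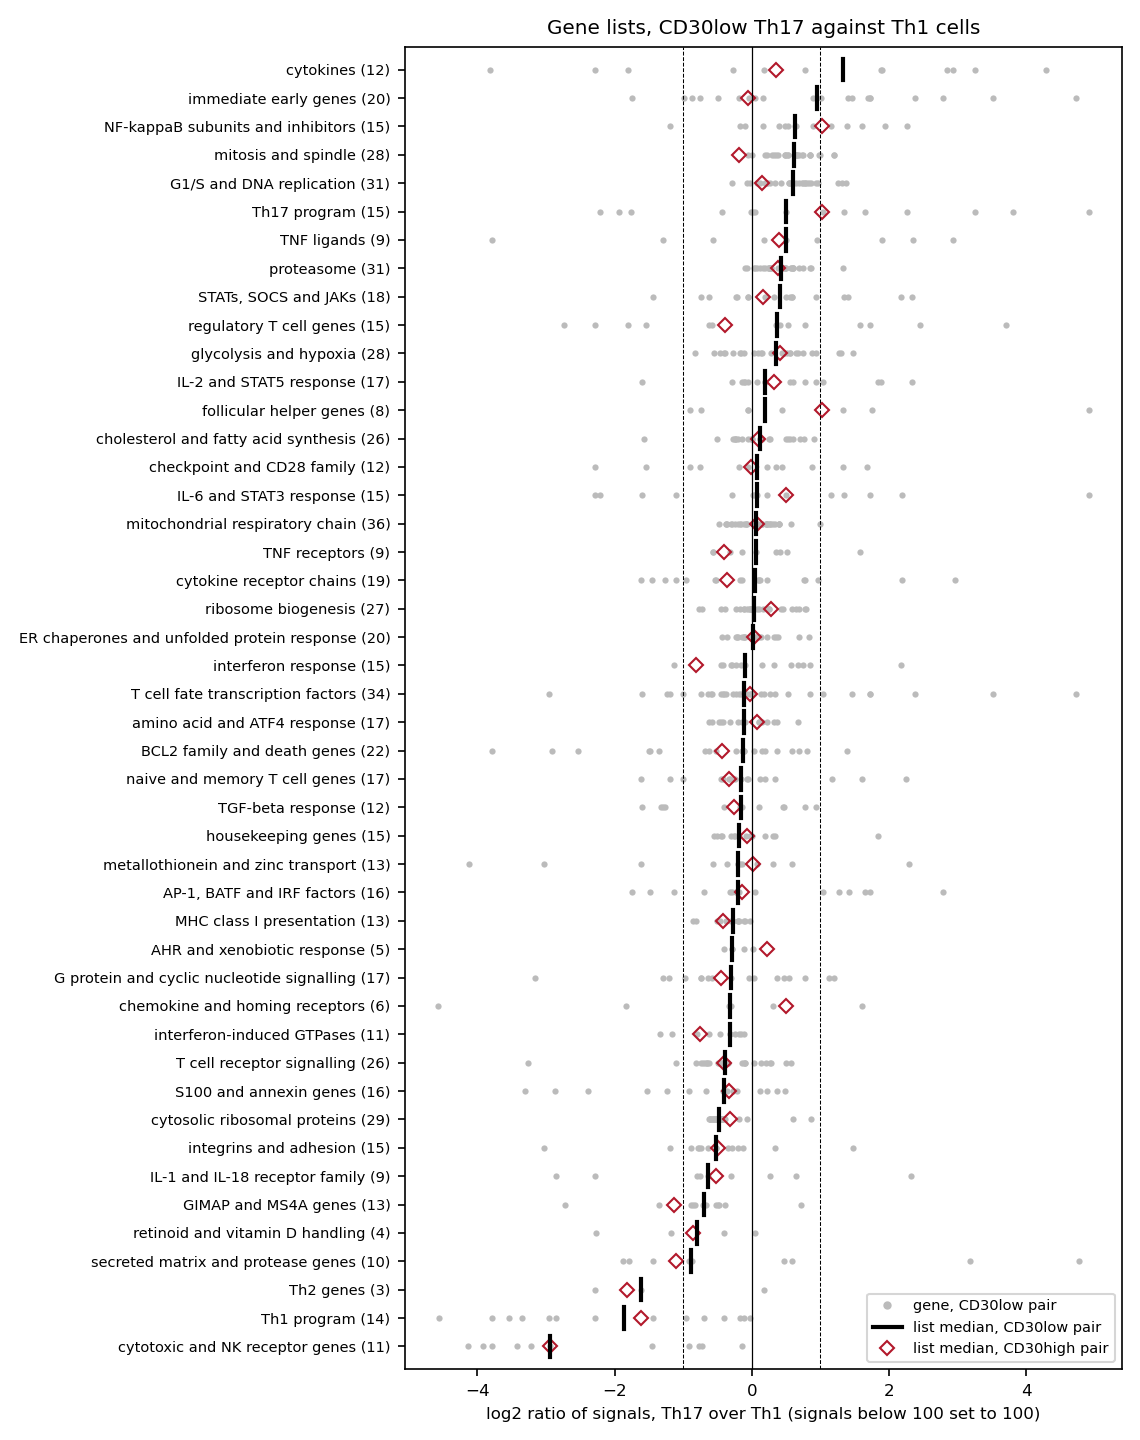
Log2 ratio of Th17 over Th1 signals in CD30low cells for members of each gene list at the signal limit (grey points, number in brackets). Lists are ordered by their median (black bars). Open diamonds are the medians of the same lists in the CD30high pair, over the members at the limit there. Cytotoxic and Th1 program genes lie at the bottom with medians of -2.94 and -1.86, and the diamond of the immediate early genes lies near 0 where the bar is at 0.95.

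The CD30high arrays gave the same lineage contrast on separate arrays, though the CD30low and CD30high sorts of a lineage may share a culture. There 379 of 7714 genes were higher (4.91%) and 525 lower (6.81%). Of the 443 genes lower in CD30low Th17 cells 273 were past the rule the same way, which is 61.6% of them and 52.0% of the CD30high calls, and 430 had the same sign. Of the 263 higher genes 124 were past it, 47.1% of them and 32.7% of the CD30high calls, and 232 had the same sign. The median log2 ratio of the lower genes was -1.43 in CD30low and -1.29 in CD30high cells, and that of the higher genes 1.35 and 0.97. Each set was chosen in the CD30low pair, so a smaller ratio in the other pair is built into this comparison. Another 43 of the higher and 33 of the lower genes were under 300 on both CD30high arrays. The opposite call was made for 2 genes of each set, which are Trgv4 and Tmem158 of the higher and Sgip1 and Mycn of the lower genes.

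**Figure D5:**
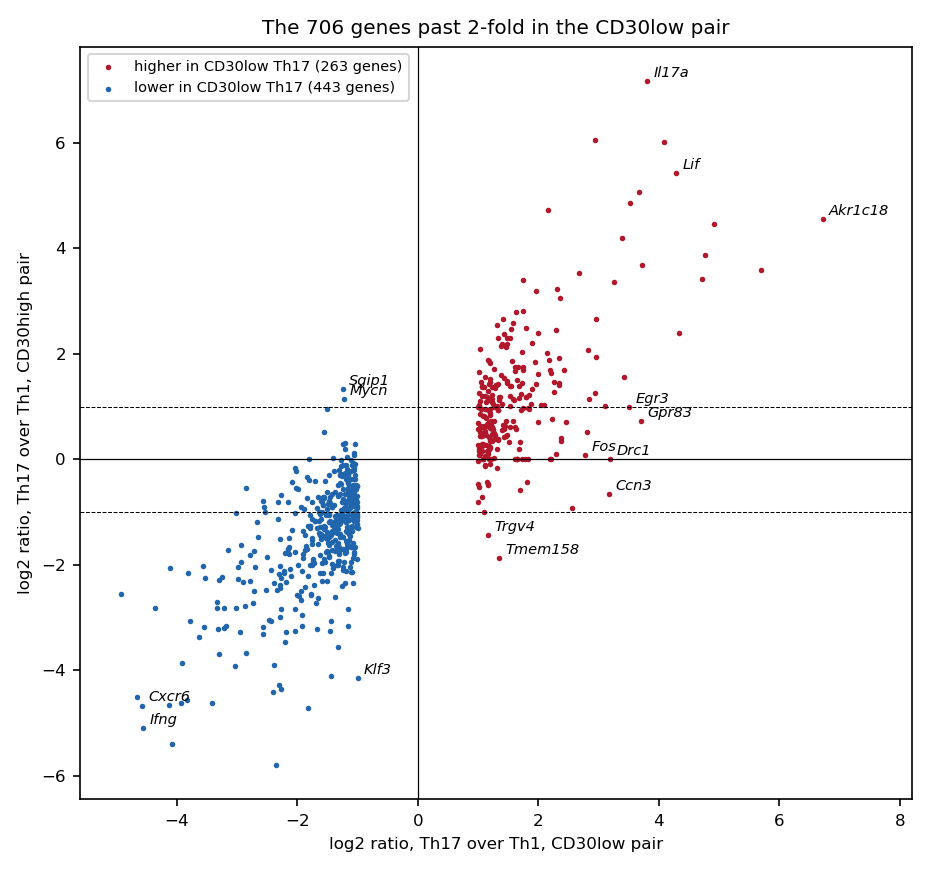
Log2 ratio of Th17 over Th1 for the 706 genes called in CD30low cells, in the CD30low pair (x axis) and the CD30high pair (y axis), with dashed lines at 2-fold in the CD30high pair. Most points lie in the lower left and upper right, 4 genes lie past 2-fold the other way, and points at exactly 0 on the y axis were below 100 on both CD30high arrays.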

How the data were processed

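Total RNA of 4 sorted populations was labelled with the GeneChip 3' IVT Express Kit, per the labels, and hybridized to 1 array each. Each deposited intensity was a linear signal per probe set, credited to the GeneChip Operating Software by the methods and to Affymetrix Expression Console by the submitters' processing notes, and the version and summary method were not given in the sources used here. Trimmed of its outer 2% on each side, the mean signal lay between 496.6 and 497.01 on every array, so overall RNA differences between populations would not be visible. The authors' present calls were not used here.

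Of 45037 probe sets 34945 had a single gene symbol, 932 had several and 9160 were unnamed here, and 34741 were matched by gene identifier to a RefSeq table of GRCm38.p6. The probe set with the highest mean over the 4 arrays represented a gene. A floor of 100, a limit of 300 and a fold of 2 were applied, the limit being that of the study. Genes on X or Y (626) or without an autosome (163) were left out. A 2-array comparison carries no test, and the number of arrays limits every value. The ratio step was tested on simulated data.

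The members, the 62 gene lists with 1190 entries (124 not named here) and the motifs were chosen with earlier results of these data known. The text names the 20 largest and smallest ratios, all Th1 and Th17 program genes at the limit and up to 4 called members per list and direction. It also names some, not all, of the marker genes at the limit, and genes next to the limits. Other named genes, most of them not called, were chosen after their values were seen. Alternatives covered scaling, floor, limits and probe set choice. The scripts ran in Python 3.11.15 with pandas 2.3.3, numpy 2.4.6 and matplotlib 3.10.9.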

Additional observations from a re-analysis of the deposited data

Results flagged for a closer look

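For 4 genes the CD30low and the CD30high pair were each past 2-fold, but in opposite directions, with 1 array per population, and the difference was not tested. Sgip1 had a log2 ratio of Th17 over Th1 of -1.25 in the CD30low pair (318 in Th1 and 134 in Th17 cells) and 1.33 in the CD30high pair (302 and 756). Mycn, a transcription factor related to Myc, had -1.23 (335 and 143) and 1.14 (674 and 1490.1). Trgv4, a variable segment of the T cell receptor gamma chain, had 1.17 (467 and 1051) and -1.45 (450.0 and 165). Tmem158 had 1.35 (581 and 1484) and -1.87 (505 and 138).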

How the results depend on the processing

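The counts of 263 higher and 443 lower genes moved to between 180 and 322 and between 321 and 526 under other scalings, floors, signal limits and probe set choices, and to 880 and 1017 at 1.5-fold and 54 and 99 at 4-fold. Of 146 named genes past 2-fold, 134 to 146 stayed past it, the fewest with a floor of 200. With probe sets free of a cross-hybridization suffix 120 of 125 did and Pfkl turned to -0.35. Other signal limits and a floor of 50 could not lower these numbers. Named genes were kept whatever the limit, and a lower floor only widens a ratio. A list median changed sign for at most 7 of 49 lists under any of these settings. In median log2 ratios, quantile normalization moved cytosolic ribosomal proteins to -0.0172. Neutrophil genes moved to 3.81 (floor 50), 1.81 (floor 200), 2.20 (limit 200) and 3.88 (limit 600). A floor of 200 moved cytotoxic genes to -2.09 and Th2 genes to -1.19. A limit of 200 moved cytotoxic genes to -1.55, Th1 program genes to -1.43 and retinoid genes to -0.18, and turned the Th2 genes to 0.18. A limit of 600 moved Th1 program genes to -2.29, retinoid genes to -0.41, cytokines to 1.89, TNF ligands to 1.04, immediate early genes to 0.11 and secreted matrix genes to -0.20. The mean of all probe sets moved retinoid genes to -0.39 and IL-2 and STAT5 genes to 0.56. Without suffixed probe sets cytotoxic genes moved to -2.07, Th1 program genes to -2.29, AP-1, BATF and IRF factors to 1.03 and regulatory T cell genes to -0.030. The signal limit and the probe set choice change which genes enter a list. Background correction could not be redone from summarized signals, and no array could be left out of a group of 1. No paired analysis was possible because each group has 1 array and the labels give no replicate numbers.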
